A study of Homo sapiens with 4 samples.

Results

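The PI3K, AKT and mTOR core genes comprised AKT1, AKT2, PIK3CA, PIK3CB, PIK3R1, MTOR, RPTOR and RICTOR, 8 genes listed by name, and 7 of them had a probe set among the 17687 genes named by the platform annotation. PIK3CA had no probe set named in that annotation and was not analysed here. Their transcripts were followed on Affymetrix whole-transcript arrays in SK-N-AS, an established line of human neuroblastoma cells. The treated cells received BG-P400-TAT at 30 µM for 48 h (2 arrays), and the cells called untreated were exposed to phosphate-buffered saline for the same time (2 arrays). All cultures were of this single line, grown in IMDM medium with fetal bovine serum, and no allele or second agent is named for either group. The series title names 2 targets of the compound, norepinephrine transporter function and the integrin αvβ3 receptor. The design text speaks of biological replicates without saying how their cultures were kept apart, and p-values thus reflect array-to-array spread, which may be technical.

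Class I phosphoinositide 3-kinases (PI3K) pair a catalytic subunit with a regulatory subunit and form the lipid PIP3 at the plasma membrane when receptors are engaged. PIP3 draws the kinase AKT to the membrane, where PDPK1 and mTOR complex 2 phosphorylate it, and AKT in turn relieves the block that the TSC complex places on mTOR complex 1, a driver of protein synthesis and a brake on autophagy. Activity along this chain is set largely by phosphorylation, which arrays of RNA do not measure, and in neuroblastoma the pathway is known as a route of growth factor and MYCN signalling.

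Each gene of the core was represented by 1 probe set, with values in log2 expression units from RMA (robust multi-array average), so that a difference of 1 is 2-fold. All 7 measured genes were expressed above background in untreated cells: their untreated means exceeded 7.21, a limit under which 95% of the 612 negative-control sets lay in untreated cells, as did those of 47.4% of all named genes. The untreated mean lay 3.62 log2 units above that limit for AKT1, 4.03 for AKT2, 3.75 for PIK3R1, 1.52 for PIK3CB, 1.99 for MTOR, 0.84 for RPTOR and 0.65 for RICTOR. Measured against the negative controls' 99th percentile, 9.32, the count was 3 (AKT1, AKT2 and PIK3R1), and 9 to 19 negative-control sets were as bright as MTOR, PIK3CB, RPTOR or RICTOR in untreated cells. Each of the 7 genes also exceeded the arrays' own 95th percentile on all 4 arrays, as did 43.3% of named genes. Probe sets bind with unequal strength, so the level of one gene was not set against that of another.

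None of the 7 genes passed limma's moderated test of treated against untreated cells, with adjusted p from 0.948 to 0.999 and 0 genes at an unadjusted p under 0.05. Over all 21448 probe sets the same test called 0, or 0%, and 1089, or 5.08%, had an unadjusted p under 0.05. AKT1 and AKT2, the AKT kinases, had positive differences, PIK3R1 and RICTOR had negative ones, and MTOR, PIK3CB and RPTOR lay near 0. The median of the 7 differences was 0.026, against 0.040 over the 8722 named genes above the negative controls (mean over the 4 arrays above 6.96). Of the 7, 5 had a positive difference, and 58.8% of those named genes did. For 6 of the 7 the 95% confidence interval lay within 2-fold in both directions, and AKT1 was the exception.

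**Figure D1:**
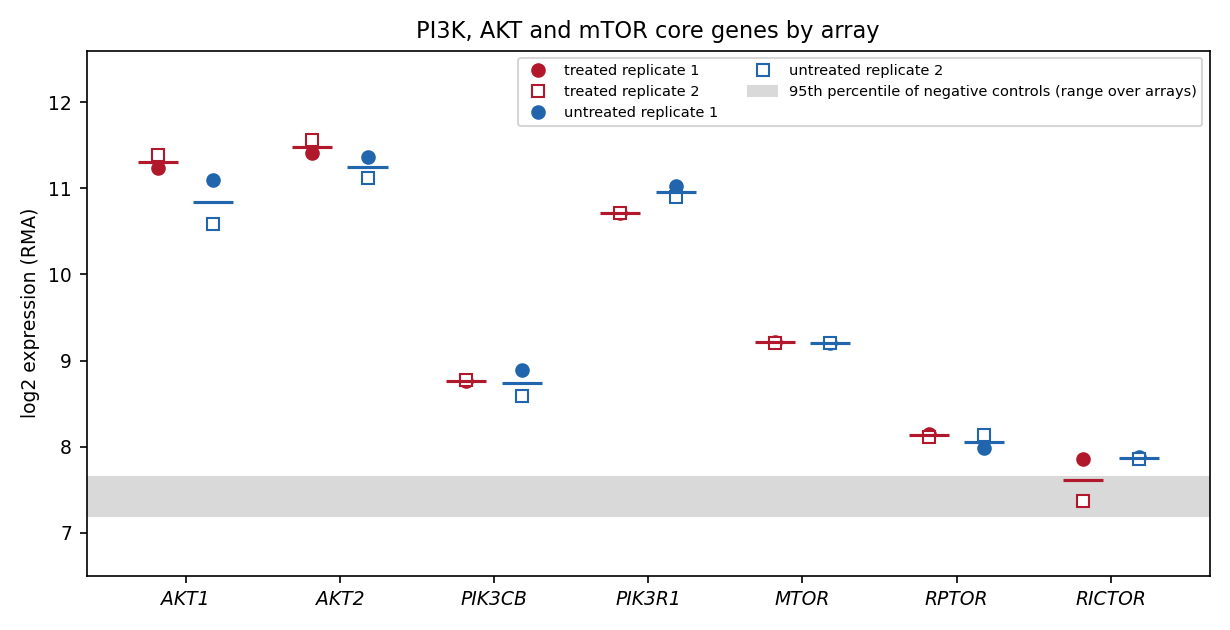
Log2 expression (RMA) of each measured core gene on each array, treated left of untreated; filled circles are replicate 1, open squares replicate 2, short lines group means, and the grey band the range over arrays of the negative controls' 95th percentile. All genes lie above their arrays' limits, and RICTOR on treated replicate 2, at 7.37, comes closest.

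The arrays were not equally alike. Untreated replicate 2 stood apart from the rest, with a median absolute log2 difference over all probe sets of 0.237 to 0.244 to the other arrays, against 0.193 to 0.208 among those. It held the lowest value of 4 of the 7 core genes (AKT1, AKT2, PIK3CB and MTOR) and the highest of 0, and its negative controls were brighter, with a 95th percentile of 7.64 against 7.19 to 7.31 on the other arrays.

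To set the start regions of the 4 core genes with the largest differences side by side, the 250 bases before their RefSeq starts are shown for the pair with positive and the pair with negative differences. On GRCh38.p14 these are chr14:104795749-104795998 (minus strand) for AKT1, chr19:40285346-40285595 (minus strand) for AKT2, chr5:68215506-68215755 (plus strand) for PIK3R1 and chr5:39074400-39074649 (minus strand) for RICTOR, each written 5′ to 3′ on the gene's strand. Capitals mark GC boxes (GGGCGG, or CCGCCC on the other strand, overlapping matches counted) and CCAAT boxes (CCAAT or ATTGG).
AKT1: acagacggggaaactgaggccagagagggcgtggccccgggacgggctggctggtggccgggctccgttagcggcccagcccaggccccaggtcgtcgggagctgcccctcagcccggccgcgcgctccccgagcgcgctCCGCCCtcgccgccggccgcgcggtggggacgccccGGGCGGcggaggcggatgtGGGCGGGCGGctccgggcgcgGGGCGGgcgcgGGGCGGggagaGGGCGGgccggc
AKT2: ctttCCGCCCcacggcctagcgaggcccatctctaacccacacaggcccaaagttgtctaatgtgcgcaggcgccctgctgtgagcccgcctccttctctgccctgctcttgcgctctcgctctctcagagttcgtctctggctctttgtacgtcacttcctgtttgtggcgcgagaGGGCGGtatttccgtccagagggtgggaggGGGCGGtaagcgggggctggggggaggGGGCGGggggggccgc
PIK3R1: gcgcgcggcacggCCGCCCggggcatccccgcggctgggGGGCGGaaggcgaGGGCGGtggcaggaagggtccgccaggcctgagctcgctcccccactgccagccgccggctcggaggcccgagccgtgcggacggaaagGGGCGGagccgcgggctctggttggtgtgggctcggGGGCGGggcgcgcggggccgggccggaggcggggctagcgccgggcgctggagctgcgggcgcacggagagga
RICTOR: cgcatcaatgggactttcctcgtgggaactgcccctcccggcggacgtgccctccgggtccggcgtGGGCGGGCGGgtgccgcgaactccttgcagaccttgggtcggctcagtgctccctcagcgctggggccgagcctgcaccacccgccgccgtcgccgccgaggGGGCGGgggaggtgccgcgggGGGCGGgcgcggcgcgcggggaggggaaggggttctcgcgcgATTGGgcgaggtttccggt
None of these 4 differences passed the test, so 2 windows against 2 cannot show whether such features go with direction. The AKT1 window held 39 CG dinucleotides and 7 GC boxes and the AKT2 window 18 and 4, and the PIK3R1 window held 37 and 5 and the RICTOR window 35 and 4. Over 27305 promoter windows of the same length, 42.3% held a GC box and 33.0% a CCAAT box, and the median window had 11 CG dinucleotides. A CCAAT box was present in the RICTOR window and in none of the other three. No match to the FOXO motif TGTTTAC (2.98% of all windows), the E-box CACGTG (6.49%), the cyclic AMP element TGACGTCA (1.77%) or the TATA box TATAAA (11.1%), searched on both strands, was found in the 4 windows. The arrays do not tell which start was used in these cells.

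AKT1 and AKT2 encode closely related serine/threonine kinases that carry the PI3K signal to metabolism, survival and growth. AKT1 had log2 values of 11.23 and 11.39 in treated cells, against 11.09 and 10.58 in untreated cells. Both treated arrays were above both untreated arrays, with untreated replicate 2 the lowest by 0.51. AKT1 averaged 11.31 ± 0.11 in treated and 10.84 ± 0.36 in untreated cells (SD, n = 2 each), a log2 difference of 0.47 ± 0.23 (SE), or 1.39-fold with an interval from 0.951 to 2.02 (limma adjusted p = 0.948). Among named genes above the negative controls 3.39% had a larger absolute difference than AKT1. Without untreated replicate 2 the AKT1 difference was 0.22, and without untreated replicate 1 it was 0.73.

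AKT2 stood at 11.41 and 11.56 in treated cells, against 11.37 and 11.12 in untreated cells. Its arrays fell in the same order as those of AKT1, from untreated replicate 2 at the bottom to treated replicate 2 at the top. The AKT2 difference was 0.24 ± 0.20 (SE), or 1.18-fold with an interval from 0.856 to 1.63 (limma adjusted p = 0.963), and it was 0.12 without untreated replicate 2. The AKT1 value minus the AKT2 value of the same array, whose changes and not whose levels can be compared, was -0.18 and -0.17 on the treated arrays and -0.28 and -0.54 on the untreated arrays. That within-array difference shifted by 0.23 between treated and untreated cells, with an exact two-sided permutation p of 0.333, the smallest that 2 arrays against 2 allow, and the shift was 0.10 to 0.36 with an array left out.

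Of the PI3K subunits, PIK3R1 was lower on both treated arrays and PIK3CB lay near 0, and neither passed the test. PIK3R1 encodes p85α and its shorter forms, which stabilize and restrain the catalytic subunit until a receptor is engaged. PIK3R1 stood at 10.72 and 10.71 in treated cells, against 11.03 and 10.90 in untreated cells. Both treated arrays were below both untreated arrays and within 0.0061 of each other. Its difference was -0.25 ± 0.18 (SE), or 0.843-fold with an interval from 0.624 to 1.14 (limma adjusted p = 0.954), and it ranged from -0.31 to -0.18 with an array left out.

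PIK3CB encodes p110β, a catalytic subunit that also responds to G protein-coupled receptors. It stood at 8.76 and 8.77 in treated cells, against 8.89 and 8.58 in untreated cells, so that the treated values lay between the untreated ones. The PIK3CB difference was 0.026 with an interval from -0.44 to 0.49, and its sign turned without untreated replicate 2 (-0.13) and after quantile normalization (-0.033) or cyclic loess (-0.020). The PIK3CB value minus the PIK3R1 value of the same array was -1.96 and -1.94 on treated arrays and -2.14 and -2.31 on untreated arrays, a shift of 0.27 (exact two-sided permutation p = 0.333) that was 0.19 to 0.36 with an array left out. This pair was chosen after the values were seen, because PIK3CA was not measured.

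MTOR, the kinase at the centre of both mTOR complexes, had the smallest difference of the 7. MTOR stood at 9.22 and 9.21 in treated cells, against 9.21 and 9.20 in untreated cells, with all arrays within 0.021 of each other. Although both treated values exceeded both untreated ones, the MTOR difference was 0.011, or 1.01-fold with an interval from 0.750 to 1.35, and 95.0% of named genes above the negative controls had a larger one. After quantile normalization the MTOR difference was -0.042 and after cyclic loess -0.035.

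RPTOR and RICTOR encode the scaffold proteins raptor and rictor, which define mTOR complex 1 and mTOR complex 2. RPTOR stood at 8.15 and 8.12 in treated cells, against 7.98 and 8.13 in untreated cells, and the groups overlapped. Its difference was 0.075 with an interval from -0.36 to 0.51, and 0.0013 to 0.15 with an array left out. RICTOR stood at 7.85 and 7.37 in treated cells, against 7.88 and 7.86 in untreated cells. One treated array was level with the untreated arrays to within 0.022 and the other lay 0.50 under the untreated mean, near its own background limit of 7.25. The RICTOR difference was -0.26 ± 0.22 (SE), or 0.838-fold with an interval from 0.582 to 1.21 (limma adjusted p = 0.963), and it was -0.014 without treated replicate 2 and -0.50 without treated replicate 1. The RPTOR value minus the RICTOR value of the same array was 0.29 and 0.74 on treated arrays and 0.11 and 0.27 on untreated arrays, a shift of 0.33 (exact two-sided permutation p = 0.333). Without treated replicate 2, where RICTOR was low, that shift was 0.11, and without treated replicate 1 it was 0.55.

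**Figure D2:**
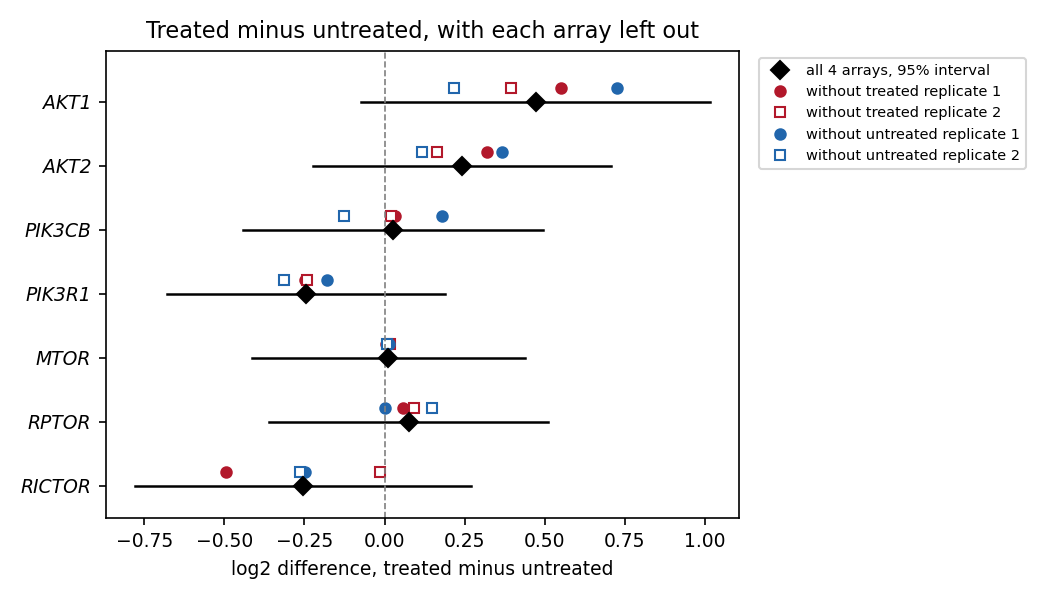
Log2 difference, treated minus untreated, of each core gene with its 95% limma interval (diamonds and bars), and with each array left out in turn (small symbols). Every interval crosses 0; AKT1 ranges from 0.22 to 0.73 and RICTOR from -0.50 to -0.014 as single arrays are left out.

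In 5 of the 7 core genes the treated and untreated arrays did not overlap (AKT1, AKT2 and MTOR higher, PIK3R1 and RICTOR lower in treated cells). Groups of named genes above the negative controls did not overlap in 32.5%, with 21.2% higher and 11.4% lower in treated cells. In MTOR and RICTOR the separation rested on gaps of 0.0022 and 0.0065 log2 units. The treated pair was closer than the untreated pair in 5 of the 7 genes, and in 57.4% of the named genes above the negative controls.

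**Figure D3:**
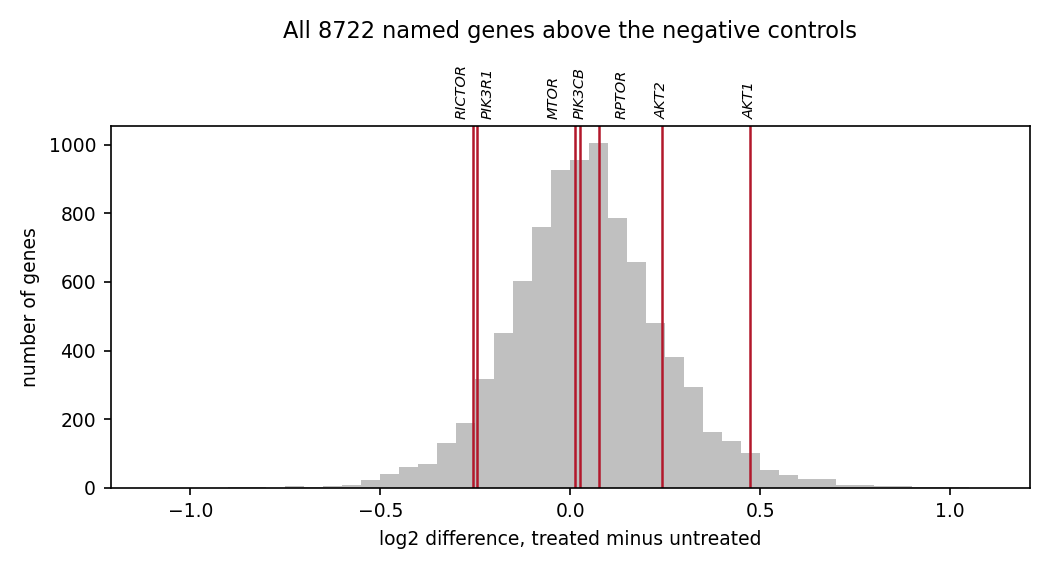
Number of named genes above the negative controls by log2 difference, treated minus untreated, in steps of 0.05, with vertical lines at the 7 core genes. MTOR, PIK3CB and RPTOR fall at the centre, PIK3R1, RICTOR and AKT2 on the flanks, and AKT1, at 0.47, in the upper tail.

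By the Euclidean distance of the 4 log2 values, each gene centred on its own mean, the genes most like AKT1 among 8721 others were GAMT at 0.053, FOSL1 at 0.065 and SLC39A1 at 0.068. Their differences were 0.47, 0.45 and 0.48. The genes most like RICTOR were TRAPPC6B at 0.0094, ZNF510 at 0.033 and RSRC2 at 0.044, with differences of -0.25, -0.25 and -0.24, all low on treated replicate 2. These distances rest on 4 arrays, and the genes were picked by these same values, so their like differences follow from the choice.

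The rest of the pathway was followed in 10 lists with 130 genes, of which 118 had a named probe set and 76 lay above the negative controls. None of the 118 was called by limma, and 2 of the 76, SEC13 and ULK1, had an unadjusted p under 0.05, which 2.4% of named genes above the negative controls had. Of the 76, 41 had a positive and 35 a negative difference, with a median of 0.019. The positive count was 34 after quantile normalization or cyclic loess and 35 to 46 with an array left out, and the median turned to -0.029 with the first of these normalizations, to -0.022 with the other and to -0.0089 without untreated replicate 2. The other 12 listed genes were not analysed here.

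Upstream of PI3K, several receptors and adaptors were above the negative controls on all 4 arrays and others on none. IGF1R, the receptor for insulin-like growth factors, stood at 12.96 and 12.80 in treated cells, against 13.04 and 12.81 in untreated cells, whereas INSR, the insulin receptor, stayed below the limit on each array. The adaptor IRS2 was likewise above it on each array, at 9.43 and 9.38 in treated cells and 9.41 and 9.35 in untreated cells, and IRS1 and IRS4 were below. Of the 6 list members above the negative controls 2 had positive differences, with a median of -0.055. The count was 4 of 6 without untreated replicate 1 (median 0.048) or without treated replicate 2 (0.040), and 1 of 6 after quantile normalization, after cyclic loess or without untreated replicate 2. SHC1, an adaptor that links receptors to RAS, had 14.19 and 14.10 in treated cells, against 13.66 and 13.88 in untreated cells, a difference of 0.37 (interval -0.08 to 0.82), and 0.26 to 0.48 with an array left out. HRAS, a small GTPase that can activate PI3K, had a difference of -0.18, and -0.32 to -0.043 with an array left out.

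Among other PI3K subunits, the leukocyte-enriched catalytic genes PIK3CD and PIK3CG and the p110γ partners PIK3R5 and PIK3R6 were below the negative controls on all arrays, with PIK3CD at 5.47 and 5.82 in treated cells and 6.11 and 5.46 in untreated cells. PIK3C3, the class III kinase of endosomes and autophagy, had a difference of -0.14, and PIK3R4, its partner, 0.081. PDPK1, which phosphorylates AKT in its activation loop, stood at 7.78 and 7.74 in treated cells, against 8.42 and 7.59 in untreated cells. Its treated values lay between the untreated ones, and its difference of -0.25 became 0.17 without untreated replicate 1. On untreated replicate 2 PDPK1 was under that array's limit of 7.64. SGK1, a kinase related to AKT, had a difference of 0.30 (interval -0.16 to 0.76) with no overlap of the groups, and 0.18 to 0.42 with an array left out. Of the opposing phosphatases, PHLPP1, which dephosphorylates AKT, stood at 7.90 and 7.36 in treated cells, against 7.05 and 7.44 in untreated cells. Both untreated values lay under their arrays' own limits of 7.31 and 7.64, so no difference is given. PHLPP1 still counts among the 76 pathway genes above the negative controls and the 41 with a positive difference. The limit used for those counts, 6.96 for the mean over all arrays, is lower than each array's own limit. PPP2R2A, a regulatory subunit of protein phosphatase 2A, had a difference of -0.077.

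In the mTOR complexes, DEPTOR, an inhibitory subunit of both, had the largest difference of the list. DEPTOR stood at 7.75 and 7.05 in treated cells, against an untreated mean of 7.94 ± 0.089 (SD, n = 2). Both treated arrays were lower than both untreated ones, and on treated replicate 2 it was under that array's limit of 7.25. The DEPTOR difference was -0.54 (interval -1.16 to 0.09, limma adjusted p = 0.948), and -0.18 without treated replicate 2. MLST8, the subunit shared by both complexes, had a difference of 0.12, AKT1S1, the AKT-regulated inhibitor PRAS40, had 0.14, and MAPKAP1, the complex 2 subunit SIN1, had 0.22, each with overlapping groups. The MAPKAP1 difference was 0.0049 without untreated replicate 2 and 0.44 without untreated replicate 1. Of the TSC genes, TSC2, the GTPase-activating subunit, had 0.23 with both treated arrays higher, and 0.060 without treated replicate 2. TSC1, the stabilizing partner of TSC2, had -0.039, and TBC1D7, the third subunit, 0.18. RHEB, the GTPase that activates mTOR complex 1, had -0.10.

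Of 21 amino acid sensing genes above the negative controls 13 had a positive difference, with a median of 0.082 that was -0.015 without untreated replicate 2, 0.037 without untreated replicate 1 and 0.035 after cyclic loess. SEC13, a subunit of the GATOR2 complex and of coat and pore complexes, stood at 11.32 on both treated arrays, against 10.80 and 10.87 on the untreated arrays, a difference of 0.49 (interval 0.06 to 0.91). FNIP1, a partner of folliculin, stood at 10.02 and 9.66 in treated cells, against 10.27 and 10.30 in untreated cells, a difference of -0.44 (interval -0.93 to 0.04), and -0.62 to -0.26 with an array left out. Neither passed, with limma adjusted p of 0.948 for both.

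Downstream of mTOR complex 1, 7 of 11 genes above the negative controls had a positive difference, with a median of 0.022 that was -0.022 after quantile normalization and -0.010 after cyclic loess, and 0.022 to 0.12 with an array left out. ULK1, the autophagy-starting kinase that mTOR complex 1 restrains, stood at 9.16 on both treated arrays, against 8.86 and 8.48 on the untreated arrays, with a difference of 0.30 to 0.68 as single arrays were left out. RPS6KB2, an S6 kinase, had a difference of 0.36 (interval -0.16 to 0.88) that was 0.13 to 0.58 with an array left out, while RPS6KB1, the better-studied S6 kinase, had 0.0080 and EIF4EBP1, a repressor of cap-dependent translation, 0.022, both with overlapping groups. Of the AKT substrates, 6 of 10 had a positive difference (median 0.083, and -0.0092 to 0.083 with an array left out, lowest without untreated replicate 2). BAD, a death-promoting BCL2 family gene, had 0.22, GSK3A, a glycogen synthase kinase, 0.16, and the transcription factor gene FOXO3 0.11, all with overlapping groups, and FOXO1 was below the negative controls on each array. The GSK3A difference ranged from 0.012 to 0.31 with an array left out.

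Transcripts that FOXO factors are known to induce showed 2 positive and 5 negative differences among 7 genes above the negative controls, with a median of -0.067. The size of that median changed with the array left out, while its sign did not. It was -0.014 without treated replicate 1, -0.015 without treated replicate 2, -0.017 without untreated replicate 1 and -0.098 without untreated replicate 2. It was -0.13 after quantile normalization and -0.11 after cyclic loess, and the count of positive differences lay between 1 and 3 of 7 over these alternatives. KLF6, a zinc-finger factor, stood at 12.03 and 11.97 in treated cells, against 11.74 and 11.45 in untreated cells, a difference of 0.40 (interval -0.07 to 0.86), and 0.25 to 0.54 with an array left out. CCNG2, a cyclin linked to cell cycle exit, had -0.18 with overlapping groups, and -0.35 to -0.014 with an array left out.

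**Figure D4:**
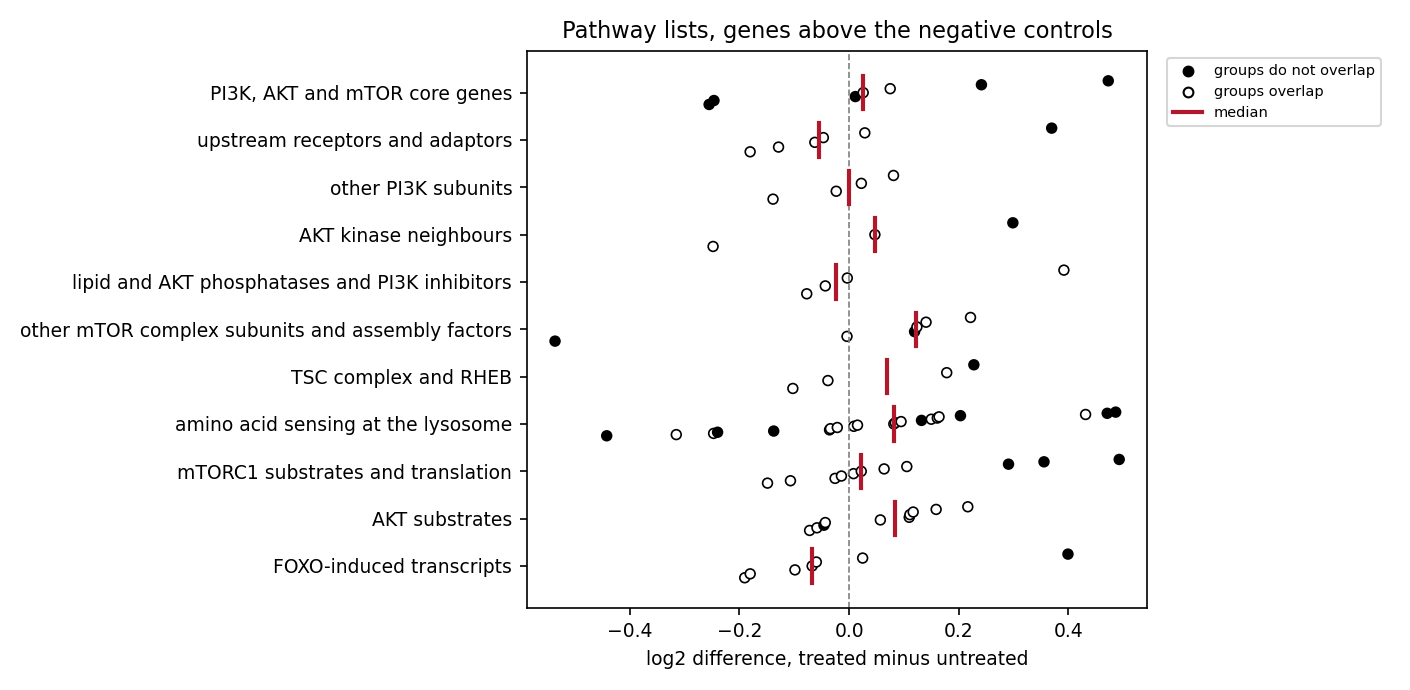
Log2 difference, treated minus untreated, of the genes above the negative controls in the core set and the 10 pathway lists; each point is a gene, filled where the treated and untreated arrays do not overlap, and red lines are list medians. Most points lie within 0.5 of 0, DEPTOR at -0.54 is the lowest, and no gene passed the test.

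Of the measured markers of other tissues, all but the probe set named PTPRC were below the negative controls. All 7 mesenchymal neuroblastoma markers, such as VIM and PRRX1, and 3 of 5 measured adrenergic markers (PHOX2A, HAND2 and GATA3) were above the negative controls, while the catecholamine enzyme genes TH and DBH were below on every array. All 7 mesenchymal markers had a positive difference (median 0.28) and so did the 3 adrenergic ones (median 0.16), against a median of 0.040 over named genes above the negative controls. The mesenchymal count was also 7 under the 3 normalizations, but 6 without untreated replicate 2 (median 0.081) and 5 without treated replicate 1 (median 0.17). The adrenergic count was 2 of 3 without untreated replicate 2. Of named genes above the negative controls 58.8% had a positive difference, and 51.5% did without untreated replicate 2. PHOX2A, a transcription factor of adrenergic neurons, stood at 8.57 and 8.51 in treated cells, against 8.12 and 7.80 in untreated cells, a difference of 0.58 (interval 0.11 to 1.05, limma adjusted p = 0.948). None of the 10 passed, and their part in the core genes' values was not tested. The 3 endothelial, 3 epithelial and 2 liver markers were below on all arrays. Of 3 leukocyte markers CD3E and CD14 were below, whereas the probe set named PTPRC stood at 12.71 and 12.57 in treated cells, against 12.75 and 12.80 in untreated cells. Whether that probe set reads PTPRC transcripts alone was not tested.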

How the data were processed

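Per the submitters' processing notes, the deposited log2 expression values per probe set came from RMA and from version 4.0.1.36 of Transcriptome Analysis Console. RMA normalizes between arrays, which largely removes a shift common to all probe sets. The arrays still differed a little: the median difference over named genes above the negative controls was 0.040 as deposited and 0.0014 after a further quantile normalization. That they are on a log2 scale was judged from their range, and the sources used here name no build for the probe sets. For 21448 non-control probe sets, treated and untreated arrays were compared in limma 3.58.1 (R 4.3.3) with lmFit and eBayes (group as the only term, two-sided, Benjamini-Hochberg over all probe sets, threshold 0.05), with no filter, after 2903 control sets were left out. Residual degrees of freedom were 2 and prior ones 4.90, and the procedure was tested on simulated data. One symbol was given for 17709 of the tested probe sets and several for 0, and 3739 stay without a name here. Every gene identifier was found in RefSeq's table for GRCh38.p14, with 0 symbols changed. The brightest probe set stood for the 20 symbols with several. The number of arrays limits the precision.

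The core genes and pathway lists were chosen with earlier results of these data known, so p-values were not adjusted over a list. The genes named are the core genes, 17 fixed pathway genes (those measured), and from each list the 2 with the smallest unadjusted p above the negative controls. IGF1R, INSR, the IRS genes, PIK3CG, PIK3R5 and PIK3R6 were named after their levels were seen. Within-array differences were tested by exact permutation, and those with PIK3CA were not run. Promoter windows are RefSeq's. Their orientation was checked by the place of TATAAA: 312 plus-strand and 334 minus-strand windows held it at bases 210 to 230, against 97 and 82 for TTTATA. Alternatives were 3 normalizations, 2 filters and a floor for dim probe sets, an intensity trend or robust moderation in eBayes, the replicate block, each array left out, the mean of a gene's probe sets, other limits and thresholds, and, added after the data were seen, array weights and the alternatives for within-array differences.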

Additional observations from a re-analysis of the deposited data

How the results depend on the processing

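No core gene and no probe set was called at an adjusted p under 0.05 under any alternative run, array weights included, and 0 were called at an adjusted p under 0.1. At an unadjusted p under 0.05 there were 1089. Array weights were equal within each group, 0.83 for untreated and 1.21 for treated arrays. With 2 arrays per group and group as the only term, the weights within a group must be equal. They therefore cannot tell whether untreated replicate 2 differed from untreated replicate 1 in quality. The log2 gap between replicate numbers 1 and 2 correlated by -0.00085 between the groups over all probe sets, so the numbers were not taken as pairs, and the replicate block gave 0 calls. The median difference of the core genes, 0.026, was -0.033 after quantile normalization and -0.020 after cyclic loess, where 3 core genes in place of 5 had a positive difference, and 0.0082 to 0.032 with an array left out. These normalizations also moved the share of positive differences over named genes above the negative controls, which was 50.4% and 50.7% where it had been 58.8%, and it was 51.5% without untreated replicate 2. The count of core genes above the negative controls was 3 at the 99th percentile in place of 7. After quantile normalization and cyclic loess the sign turned for MTOR (-0.042 and -0.035), PIK3CB (-0.033 and -0.020), EIF4EBP1 (-0.022 and -0.010) and RPS6KB1 (-0.035 and -0.024). With an array left out, the genes whose sign turned had log2 differences of -0.079 to 0.36 for AKT1S1, -0.15 to 0.59 for BAD, -0.22 to 0.27 for EIF4EBP1, -0.16 to 0.41 for FOXO1, -0.18 to 0.40 for FOXO3, -0.051 to 0.30 for MLST8, -0.66 to 0.17 for PDPK1, -0.38 to 0.10 for PIK3C3, -0.13 to 0.18 for PIK3CB, -0.47 to 0.18 for PIK3CD, -0.0028 to 0.16 for PIK3R4, -0.16 to 0.0067 for PPP2R2A, -0.24 to 0.037 for RHEB, -0.11 to 0.12 for RPS6KB1, -0.062 to 0.42 for TBC1D7 and -0.10 to 0.024 for TSC1. Of these, FOXO1 and PIK3CD were below the negative controls on each array, so their ranges are those of background values. The core genes other than MTOR and PIK3CB kept their sign under all alternatives run, as did the within-array differences. Many alternatives could not turn these signs. Filters, eBayes settings, the replicate block, array weights and the mean of probe sets leave a core gene's difference unchanged. Leaving an array out cannot turn it where the groups do not overlap, as in AKT1, AKT2, PIK3R1, RICTOR and the within-array differences. Median centring shifts both genes of an array alike, so it cannot change a within-array difference. For those differences only quantile normalization and cyclic loess could have turned a sign. The cause of the turns was not tested.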
